A study of Mus musculus with 93 samples.

Results

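Oocytes of Esr2 knockout mice were compared between 7 and 4 weeks of age, with 12 libraries at 7 weeks and 7 at 4 weeks, which are 19 of the 93 libraries of the series. They were chosen by label: every column named as a knockout oocyte of those ages in the 2 oocyte count tables, joined by gene symbol. The tables share 15317 genes, and 12575 had enough reads to be tested. RNA was measured with Smart-seq2, which copies whole mRNAs into cDNA and suits samples of few cells. Wild type oocytes of the same tables, 12 libraries at 4 weeks and 5 at 7 weeks, were set beside them. Both knockout groups lack Esr2 and differ from each other in age. The strain, the allele, the number of oocytes in a library and the animals behind each library are not given in the sources used here, so each library counts as a replicate and the p-values reflect spread that may be technical. The 2 ages came as separate tables, so age and table cannot be told apart. Oocytes of 6 months, of both genotypes and from a further table, entered 1 alternative fit. The 4 knockout libraries of 6 months are described at the end. The name of 1 column at 7 weeks joins the numbers 4 and 5, so the 12 libraries of that age may not be 12 separate samples.

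Esr2 encodes estrogen receptor beta, a nuclear receptor that binds estradiol and regulates genes in the nucleus, and in the ovary it is best known from granulosa cells, which line the follicle around the oocyte. The oocyte grows in close contact with them, exchanges small molecules through gap junctions and sends out growth factors such as GDF9 and BMP15. A growing oocyte stores maternal mRNAs and proteins for meiosis and the early embryo. Transcription is largely silent once growth ends, so that later mRNA levels depend mainly on storage and decay. The interval between both ages spans puberty in the mouse. The comparison asks which mRNAs of the oocyte differ across that interval when the receptor is missing.

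The libraries matched their labels. Esr2 (chr12:76120419-76177259, minus strand, GRCm38) had 1 count over all 4 week knockout libraries and 4 counts over those of 7 weeks, with no count in 6 of 7 and in 10 of 12 libraries. The wild type means were 91.8 CPM (counts scaled to the same library total) at 4 weeks and 64.0 CPM at 7 weeks. Totals ran from 3992042 to 5690562 counts in the 4 week knockout libraries and from 1814958 to 6134429 in those of 7 weeks. Transcripts that define oocytes were abundant in each library: the 15 oocyte markers summed to between 18082 and 34668 CPM. On the first principal component, which held 24.8% of the variance, the ages did not differ by an exact two-sided permutation test over the libraries (p = 0.907, 0.907 after adjustment over 3 measures). They differed on the second, which held 6.91% (exact permutation p = 0.00675, adjusted p = 0.0202). The 4 week knockout library number 4 and the 7 week knockout library number 1 lay far from the other knockout libraries on the first component, at −98.6 and −101.5. The lowest wild type libraries were number 5 of 4 weeks, at −91.3, and number 1 of 7 weeks, at −138.9. Each of these 4 libraries had the lowest total of its group, and whether depth set the scores was not tested. The counts of called genes, the named genes and the marker sums were also computed without these 4 libraries, a choice made after seeing the data.

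Few mRNAs differed between the ages in knockout oocytes. Dcaf5 rose and Cirbp fell. Over all genes, 2 were called higher (0.0159% of those tested) and 1 lower (0.00795%), together 0.0239% of the 12575 tested, by edgeR's quasi-likelihood test with a Benjamini-Hochberg adjusted p under 0.05. An unadjusted p under 0.05 was reached by 1059 genes (8.42%), of which 613 (4.87%) were higher and 446 (3.55%) lower at 7 weeks. The median log2 fold change over all tested genes was 0.02, with quartiles of −0.21 and 0.26; below, each log2 fold change is given ± SE. Of 9035 genes with a mean of at least 5 CPM at the higher age, 7109 (78.7%) had a 95% interval that lay within a 2-fold change in either direction.

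**Figure D1:**
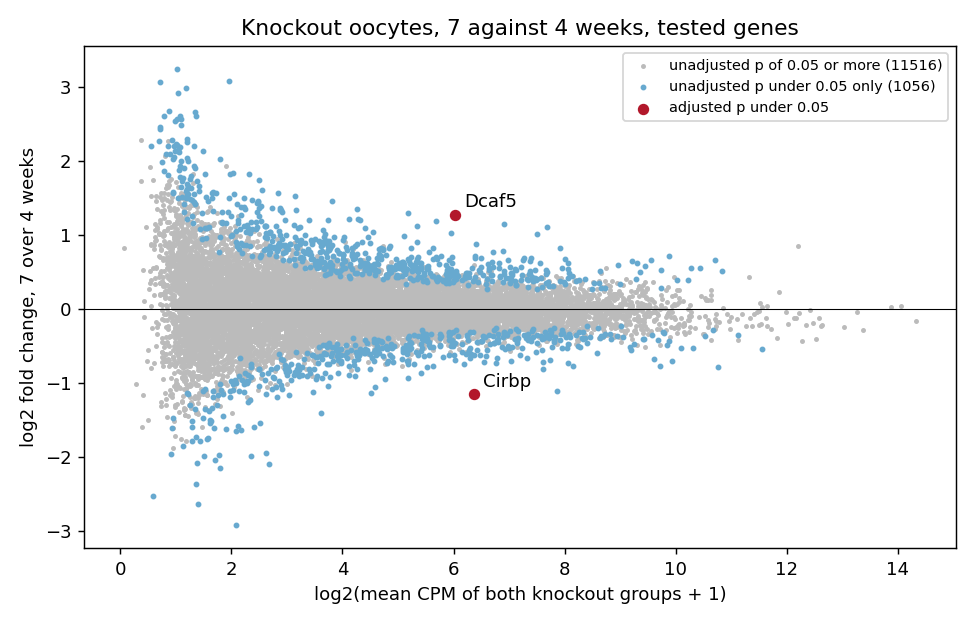
Log2 fold change of the tested genes, other than 1 that is not drawn, between 7 and 4 weeks in knockout oocytes against the mean level, log2(CPM + 1). Dcaf5 and Cirbp, past the test, are labelled; the widest scatter is at the lowest levels.

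Dcaf5 encodes a WD-repeat protein that serves as a substrate receptor of CUL4-DDB1 ubiquitin ligases. It lies at chr12:80335848-80436601, minus strand (GRCm38). Its level, in CPM scaled by TMM, ran from 18.7 to 62.3 at 4 weeks, with a median of 36.8, and from 61.8 to 144.2 CPM at 7 weeks, with a median of 87.2. The groups overlapped at 1 library: the lowest of 7 weeks was just under the highest of 4 weeks, and the other 11 lay above all 7. That highest 4 week library was number 4, which stood apart on the first component. The means were 37.6 ± 14.5 CPM (SD, n = 7) and 91.2 ± 25.9 CPM (SD, n = 12), a log2 fold change of 1.27 ± 0.23 (SE, adjusted p = 0.00897 in edgeR).

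Cirbp encodes a cold-inducible RNA-binding protein that binds mRNAs and affects their stability and translation under stress. It lies at chr10:80165985-80172786, plus strand (GRCm38). Its groups did not overlap. At 4 weeks its level ran from 81.1 to 203.3 CPM, with a median of 105.3, and at 7 weeks from 30.7 to 64.8 CPM, with a median of 51.2. Each library of 7 weeks was thus below each of 4 weeks, and the 4 week library number 2 was far above the others of its age. The means were 111.9 ± 42.3 CPM (SD, n = 7) and 50.3 ± 9.17 CPM (SD, n = 12), and the level fell by 1.15 ± 0.22 on the log2 scale (SE, adjusted p = 0.0302 in edgeR).

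**Figure D2:**
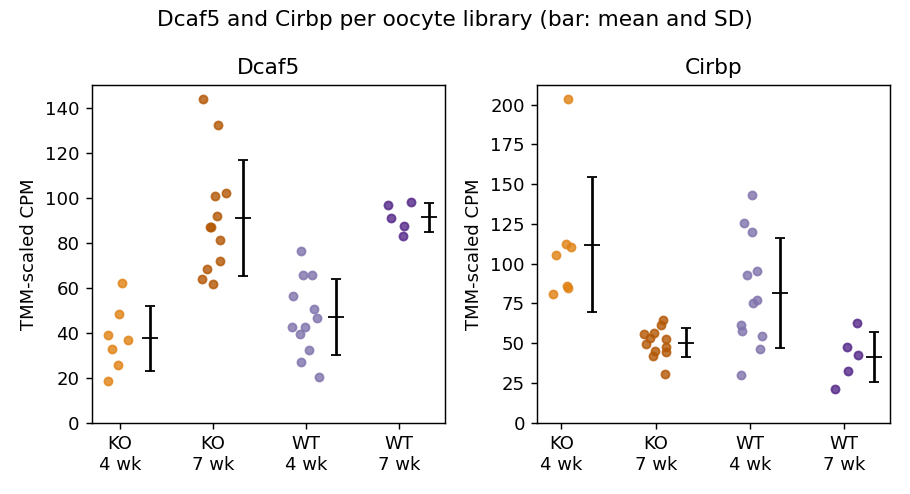
Level of Dcaf5 and Cirbp in each oocyte library, in CPM scaled by TMM, for knockout (KO) and wild type (WT) mice of 4 and 7 weeks; points are libraries, and the bar beside them is the mean with its SD. In knockout mice Cirbp does not overlap between the ages, and Dcaf5 overlaps at 1 library of 7 weeks.

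The calls rested on few libraries. Without the 4 week library number 2 no gene passed, and Dcaf5 and Cirbp also lost their calls without number 6 of that age. Cirbp also lost its call without the 4 week library number 1, without the 7 week libraries number 1 or 8, and without the unnumbered column (adjusted p = 0.0643 in edgeR), while its log2 fold change stayed between −1.22 and −0.96 over all 36 alternatives.

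A stretch before an annotated start site of Dcaf5 and of Cirbp is shown because every library compared lacks a receptor whose DNA element is built from the half-site GGTCA. Both were read from RefSeq's promoter table (GRCm38.p6). Each stretch covers 180 bases, from 250 to 71 before the start site, with GGTCA or TGACC and the GC box GGGCGG or CCGCCC in capitals, both strands having been searched. The Dcaf5 stretch is chr12:80436672-80436851 on the minus strand, upstream of the whole gene. The Cirbp stretch is chr10:80167589-80167768 on the plus strand, before the first of the 2 start sites that the table gives for this gene. It lies inside the gene span given above, since a GENCODE transcript starts further upstream, and it overlaps no annotated exon.
Dcaf5: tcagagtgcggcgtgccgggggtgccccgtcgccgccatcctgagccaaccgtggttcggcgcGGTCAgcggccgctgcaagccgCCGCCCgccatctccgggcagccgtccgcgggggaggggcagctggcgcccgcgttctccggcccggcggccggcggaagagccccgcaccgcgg
Cirbp: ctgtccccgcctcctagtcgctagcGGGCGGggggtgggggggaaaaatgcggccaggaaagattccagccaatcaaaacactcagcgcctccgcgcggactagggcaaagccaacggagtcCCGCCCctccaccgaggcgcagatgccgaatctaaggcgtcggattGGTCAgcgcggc
Each holds 1 half-site, Dcaf5 1 GC box and Cirbp 2. A half-site occurs in 26.9% and a GC box in 21.1% of the 32851 promoters of the table over the same window. A match is a run of letters, not a measured binding site.

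The libraries of 7 weeks lay wholly above or wholly below those of 4 weeks for 7 genes (0.0557% of those tested), 3 above (0.0239%) and 4 below (0.0318%). Besides Cirbp, these genes missed the edgeR test and are named after their values were seen; Ptar1, Elk3 and Fars2 passed with DESeq2's Wald test, and Ptar1 and Elk3 with limma voom. Ptar1, a prenyltransferase subunit repeat-containing protein, ran from 3.61 to 9.36 CPM at 4 weeks, with a median of 7.76, and from 11.8 to 20.6 CPM at 7 weeks, with a median of 15.6 (log2 fold change 1.07 ± 0.23, adjusted p = 0.0816 in edgeR). Elk3, an ETS-family transcription factor, ran from 0.36 to 6.17 CPM at 4 weeks and from 6.50 to 14.3 CPM at 7 weeks (1.56 ± 0.39, adjusted p = 0.159 in edgeR). Etv6, another ETS factor, had a log2 fold change of 1.73 ± 0.62 at a mean of 2.46 CPM at 7 weeks. The lower ones were Fars2, the mitochondrial phenylalanyl-tRNA synthetase (means of 155.8 and 109.0 CPM), Gipc2 (90.8 and 61.8 CPM) and the predicted gene Gm31881 (4.65 and 2.12 CPM). Of these 6, Ptar1 had the lowest adjusted p.

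After the called genes, the 9 with the lowest p, also named after their values were seen, were Ptar1 and 8 genes whose groups overlapped. Ptprd, a receptor tyrosine phosphatase, ran from 13.5 to 44.1 CPM at 4 weeks and from 6.46 to 23.9 CPM at 7 weeks (log2 fold change −1.14 ± 0.25, adjusted p = 0.0816 in edgeR). Dgat2, which catalyses the last step of triglyceride synthesis, ran from 7.99 to 37.9 CPM and from 24.7 to 68.9 CPM (1.29 ± 0.29, adjusted p = 0.116 in edgeR). Lbr, the lamin B receptor of the inner nuclear membrane and a sterol reductase, ran from 43.7 to 208.6 CPM and from 180.4 to 378.9 CPM (1.02 ± 0.23). Daglb, a diacylglycerol lipase, had a log2 fold change of 1.11 ± 0.26, and Strip2 ran from 7.54 to 19.6 CPM and from 16.1 to 33.0 CPM (0.88 ± 0.20). Among the lower ones, Tcf4, a basic helix-loop-helix transcription factor, had means of 8.19 and 2.09 CPM (−1.95 ± 0.45). Lurap1l ran from 118.1 to 479.1 CPM and from 75.5 to 219.9 CPM (−1.11 ± 0.26), and the predicted gene Gm16845 had a log2 fold change of −1.05 ± 0.22. Knockout granulosa libraries of both ages had means of 203.6 CPM for Tcf4, 162.7 for Ptprd and 25.2 for Ptar1. The oocyte means were 5.14, 21.9 and 11.5 CPM. A granulosa level at least 10 times the oocyte one, as for Tcf4, was found for 14.5% of tested genes. Lurap1l, Lbr, Strip2, Dgat2 and Daglb were lower in granulosa libraries. Whether granulosa RNA entered these values was not tested. None of the 9 passed in edgeR. All 9 passed with DESeq2's Wald test, with adjusted p-values for these 9 from 0.00209 to 0.0204. In that test 41 genes passed in all. Ptar1 and Lbr also passed with limma voom. Without the 4 libraries that stood lowest on the first component, 12 genes passed, among them Dcaf5, Cirbp, Ptar1, Dgat2, Lbr, Ptprd, Lurap1l, Ccnb2, Cdkn2aipnl, Ldhb and Gm16845.

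Genes that make the oocyte's coat, its secreted signals and its stored maternal factors were then examined by name. Of 29 genes fixed as the oocyte's core set together with both estrogen receptors, 14 were higher and 15 lower at 7 weeks, none passed the test (lowest adjusted p = 0.335), and 25 had a 95% interval within 2-fold. The exceptions were Esr2, Figla, Mos and Zar1.

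The growth factor genes overlapped between the ages. Gdf9, whose product acts on granulosa cells, ran from 8419 to 20860 CPM at 4 weeks with a median of 16240, and from 5595 to 22210 CPM at 7 weeks with a median of 16170. The groups overlapped almost fully, and the log2 fold change was 0.02 ± 0.25. Bmp15, its partner ligand, ran from 1095 to 1797 CPM at 4 weeks, with a median of 1594, and from 1499 to 3555 CPM at 7 weeks, with a median of 2095. Its log2 fold change was 0.51 ± 0.17, with an unadjusted p of 0.0044 that became 0.335 after adjustment in edgeR. Among the zona pellucida genes, which encode the glycoprotein coat, the log2 fold changes were −0.26 ± 0.26 for Zp1, 0.14 ± 0.19 for Zp2 and 0.10 ± 0.23 for Zp3. Kit, the receptor for granulosa-derived kit ligand, stood at 181.2 ± 30.1 CPM and 180.1 ± 31.9 CPM (SD), and Gja4, the gap junction protein of the oocyte surface, at 103.1 ± 23.8 CPM and 91.4 ± 21.2 CPM (SD).

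Genes of meiotic maturation had values in both directions. Mos, the kinase that holds the egg at metaphase, ran from 428.4 to 1956 CPM at 4 weeks, with a median of 1303, and from 788.7 to 2511 CPM at 7 weeks, with a median of 2096. Its groups overlapped, and its log2 fold change was 0.66 ± 0.27 (adjusted p = 0.484 in edgeR). Ccnb1, the cyclin B1 partner of CDK1, had a log2 fold change of 0.43 ± 0.26, and Ccnb2 one of −0.70 ± 0.20 (adjusted p = 0.226 in edgeR). Bub1b, of the spindle checkpoint, ran from 703.9 to 1625 CPM and from 1271 to 2827 CPM (0.55 ± 0.17).

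Among the maternal-effect and stored mRNAs of this set, Zar1 was the one with an interval that left out 0. Nlrp5, Padi6 and Tle6, of the subcortical maternal complex, had log2 fold changes of −0.07 ± 0.19, 0.12 ± 0.17 and −0.16 ± 0.19. Zar1, which binds stored mRNAs, had means of 1058 ± 592 CPM and 616 ± 288 CPM (SD), with a log2 fold change of −0.78 ± 0.32 (adjusted p = 0.489 in edgeR). Dazl, a translational regulator, had a log2 fold change of −0.34 ± 0.18. H1f8, the oocyte linker histone, was among the most abundant mRNAs, at 16784 ± 3840 CPM and 17144 ± 4535 CPM (SD). Dnmt1, Dnmt3a and Dnmt3l, of DNA methylation, had log2 fold changes of −0.03 ± 0.15, 0.07 ± 0.13 and −0.24 ± 0.16. The remaining estrogen receptor gene, Esr1, stood at 47.3 ± 6.77 CPM and 40.4 ± 12.0 CPM (SD), a log2 fold change of −0.23 ± 0.18 that did not pass the test.

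**Figure D3:**
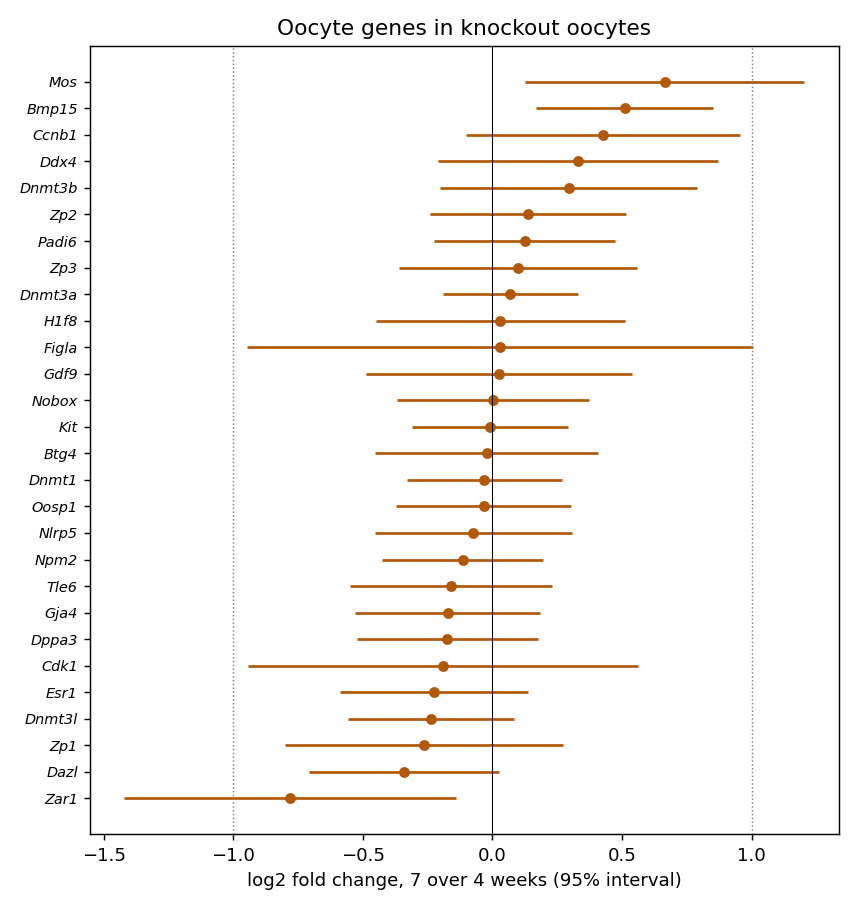
Log2 fold change between 7 and 4 weeks in knockout oocytes, with its 95% interval, for the oocyte genes other than Esr2; dotted lines mark a 2-fold change. The intervals of Figla, Mos and Zar1 cross a dotted line, and those of Mos, Bmp15 and Zar1 leave out 0.

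Pathways were read from 35 gene lists with at least 5 tested members, 1174 genes in all. None of these genes passed the test (lowest adjusted p = 0.159), and 89 of them (7.58%) had an unadjusted p under 0.05, against 8.42% of all tested genes. The medians of the lists lay between −0.17, for mitochondrial dynamics, and 0.18, for gap junctions and contact with somatic cells, against 0.02 over all genes. In 6 lists, among them the cytosolic ribosomal proteins and nuclear oxidative phosphorylation genes, no member had an unadjusted p under 0.05.

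In 3 lists at least 6 members had an unadjusted p under 0.05 in edgeR, which 8.42% of all tested genes reached, and none passed the test. Of 30 TGF-beta family genes, 6 were higher and 1 lower at that level (23.3% of the list), with a list median of 0.16; Smad3, a signal transducer of this family, ran from 189.7 to 477.1 CPM at 4 weeks and from 310.4 to 563.2 CPM at 7 weeks (0.52 ± 0.17). Of 47 genes of mRNA storage and translation control, 7 were higher and 3 lower (21.3%); Stau2, which binds double-stranded RNA, had means of 71.3 and 50.2 CPM (−0.51 ± 0.15). Of 49 genes of DNA damage response and repair, 4 were higher and 2 lower (12.2%); Rad54l, which acts in homologous recombination, had means of 30.9 and 47.7 CPM (0.63 ± 0.20). Of 46 cell cycle and replication genes, 5 were higher and none lower (10.9%); Mcm4, a subunit of the replicative helicase, had means of 113.2 and 163.0 CPM (0.53 ± 0.15). The 17 zona pellucida and oocyte growth factor genes held 2 higher and 1 lower (17.6%).

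No member of the metabolic and stress lists passed the test. An unadjusted p under 0.05 in edgeR was reached by 8.42% of all tested genes, 4.87% higher and 3.55% lower. Of 26 cholesterol genes, 4 were higher and none lower at that level (15.4% of the list). Srebf1, a sterol-responsive transcription factor, had means of 77.3 and 106.0 CPM (0.46 ± 0.20). Of 27 glycolysis and pyruvate genes, 2 were higher and 2 lower (14.8%). Ldhb, a lactate dehydrogenase subunit, ran from 1406 to 2965 CPM at 4 weeks and from 542.7 to 1713 CPM at 7 weeks (−0.79 ± 0.23, adjusted p = 0.226 in edgeR). Of 34 heat shock genes, 4 were higher and 1 lower (14.7%). Hspb1, a small heat shock protein, had a log2 fold change of 1.31 ± 0.39 and Hspd1, the mitochondrial chaperonin, one of −0.51 ± 0.14. Both were higher in knockout granulosa libraries, at 54.5 and 220.9 CPM against 6.49 and 62.6 CPM in the oocyte ones. Of 38 autophagy and lysosome genes, 3 were higher and 2 lower (13.2%). Atg16l1, needed for autophagosome formation, had means of 200.2 and 293.2 CPM (0.55 ± 0.15). Of 39 genes of mitochondrial dynamics, 4 were lower and none higher (10.3%, near the share of all genes). The lower ones included Immt, a scaffold of cristae (−0.28 ± 0.11). Other lists of this kind had smaller shares. These were 9.76% for endoplasmic reticulum chaperones, 5.26% for antioxidant genes and 4.17% for apoptosis. The tricarboxylic acid cycle and fatty acid oxidation list had 2.78%, and immediate-early genes 0%.

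**Figure D4:**
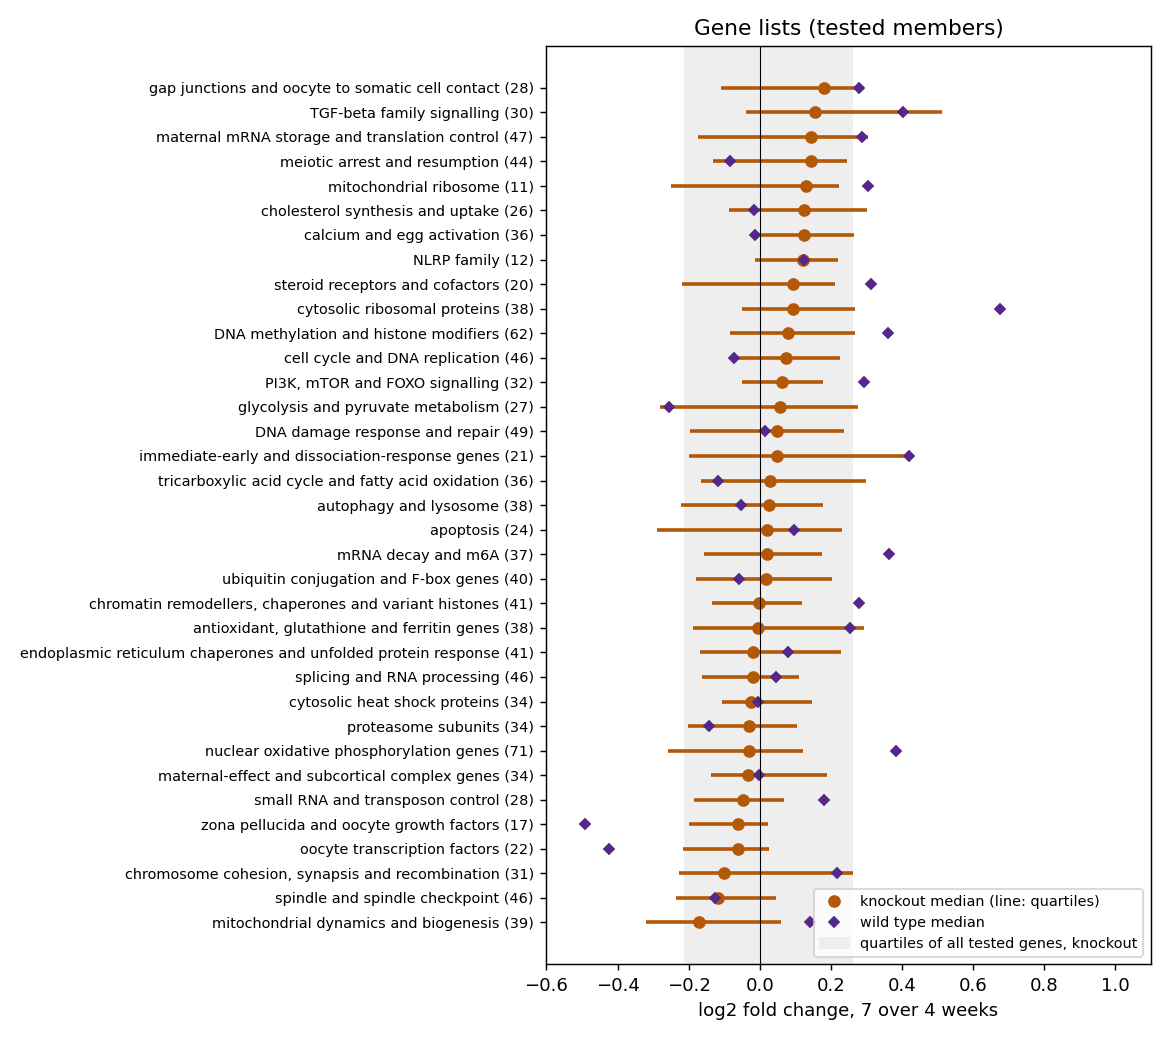
Median log2 fold change of each gene list between 7 and 4 weeks, with the quartiles of its members in knockout oocytes and the wild type median beside it; the grey band spans the quartiles of all tested genes in knockout oocytes. All 35 knockout medians lie inside the band, which is set by single genes and so is wide for a median of many genes.

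Markers of cells that could travel with an oocyte were summed per library. None of 8 marker sums differed between the ages after adjustment by an exact two-sided permutation test over the 19 knockout libraries. Several sums held few markers: 2 of 15 for theca and stroma, 4 of 14 immune and 5 of 10 endothelial ones. Laptm5 made up most of the immune sum (16.0 and 15.7 CPM) and Pecam1 most of the endothelial one (81.4 and 90.2 CPM). Such sums say little about markers of low level. Of these, Kdr stood at 1.27 and 4.84 CPM (adjusted p = 0.034 in DESeq2's Wald test) and Tek at 6.61 and 6.38 CPM. Granulosa markers summed to between 71.8 and 175.7 CPM at 4 weeks and between 50.9 and 206.5 CPM at 7 weeks, with 9 of 15 in the tables; Fst, Gja1 and Bex4 had no count in several libraries and Cyp19a1 made up most of the sum. In such sums fewer granulosa cells and less RNA per cell cannot be told apart. Surface epithelium markers came closest, at 146.2 ± 57.1 CPM and 210.1 ± 40.3 CPM (SD), with an exact permutation p of 0.0074 (adjusted p = 0.0592). Only 4 of the 9 listed were in both tables, and Cdh1 supplied nearly all of the sum, at 135.6 and 197.4 CPM. Upk3b stood at 9.42 and 9.83 CPM, Lgr5 at 0.75 and 2.54 CPM, and Krt8 at 0.51 and 0.33 CPM. Krt18, also on the list, was in the table of 7 weeks alone and so did not enter the sum. Cdh1, E-cadherin, is also made by oocytes. As a single gene it had a log2 fold change of 0.51 ± 0.19 (adjusted p = 0.426 in edgeR). None of the 7 erythroid markers is in the tables.

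The same ages were then compared in wild type oocytes, whose libraries share the tables but not the samples. There 37 genes passed the test (0.294%), 23 higher and 14 lower at 7 weeks. None of the 37 passed in knockout oocytes, where only 0.0239% of all tested genes did, so that count says little. Lurap1l, 1 of the 37, had log2 fold changes of −1.605 ± 0.321 in wild type and −1.11 ± 0.26 in knockout. It passed in knockout in 3 of 36 alternatives, among them DESeq2's Wald test. The wild type count rested on single libraries of 7 weeks: no gene passed without library 1 or library 4 (1689 and 2964 at an unadjusted p under 0.05 in edgeR), 3 passed without library 2, and 506 without library 5. Library 1 stood apart on the first component, at −138.9, and library 2 had a granulosa marker sum of 491.6 CPM. With DESeq2's Wald test 959 genes passed, and 2149 with the granulosa marker sum as a covariate. With DESeq2 size factors the wild type calls split into 58 higher and 77 lower, and with library totals, which shifted the wild type median of all genes to 0.18, into 91 and 11. Of the 37 genes, 32 (86.5%) had the same sign in knockout oocytes, as did 56.3% of all tested genes. Their knockout values were smaller: the 23 higher genes had a median log2 fold change of 1.41 in wild type and 0.23 in knockout, and the 14 lower ones of −1.09 and −0.25. The wild type values were those that chose these genes, so their larger size is in part fixed by the choice. Across all tested genes Pearson's r between the age changes of both genotypes was 0.142, a description over genes that share the tables.

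Conversely, Dcaf5 and Cirbp had the same sign in wild type as in knockout. Dcaf5 had a wild type log2 fold change of 0.95 ± 0.23 (adjusted p = 0.0528 in edgeR), and each of the 5 wild type libraries of 7 weeks lay above all 12 of 4 weeks. How many of all tested genes separate in this way in wild type is not given here. Cirbp had a wild type log2 fold change of −0.98 ± 0.27 (adjusted p = 0.0561 in edgeR), and its groups overlapped, from 29.8 to 143.0 CPM at 4 weeks and from 20.8 to 62.5 CPM at 7 weeks. The difference between genotypes in the age change was 0.32 ± 0.32 for Dcaf5 (adjusted p = 0.663) and −0.17 ± 0.34 for Cirbp (adjusted p = 0.837), both in edgeR.

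**Figure D5:**
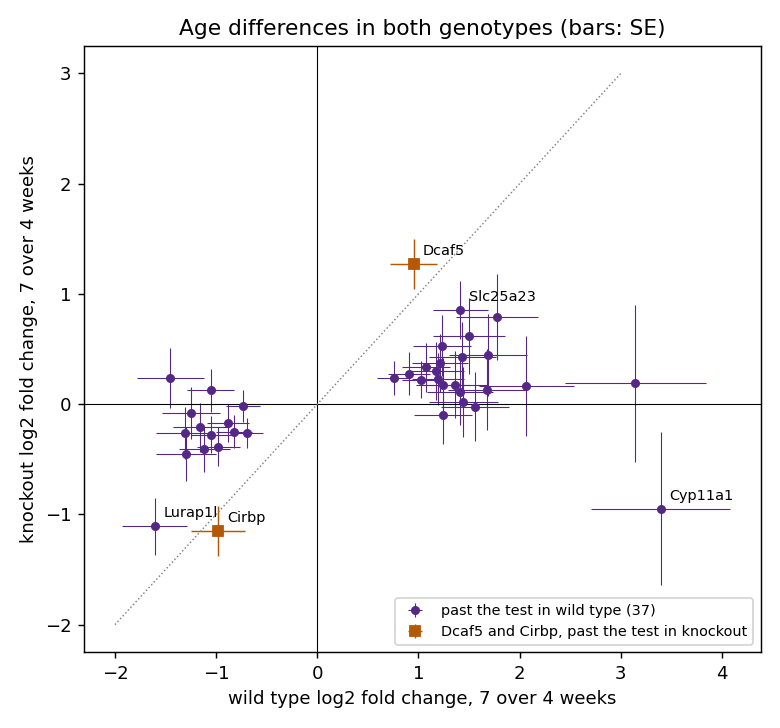
Log2 fold change between 7 and 4 weeks in wild type (x axis) and knockout oocytes (y axis) for the 37 genes past the test in wild type and for Dcaf5 and Cirbp, past it in knockout, with the SE of each; the dotted line marks equal change. Dcaf5 and Cirbp lie on the same side of 0 in both genotypes.

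No gene had an age change that differed between genotypes in edgeR's test of the difference (0% of 12575; 1502 genes, 11.9%, at an unadjusted p under 0.05, with 7.02% on the higher side in knockout and 4.92% on the lower), and the lowest adjusted p, 0.0721, was that of Ptar1. Ptar1 had an age log2 fold change of 1.07 ± 0.23 in knockout oocytes and of −0.74 ± 0.26 in wild type, a difference of 1.81 ± 0.35. Dgat2 had values of 1.29 ± 0.29 and −0.52 ± 0.32, and Fbxl6, an F-box gene, of 0.58 ± 0.20 and −0.67 ± 0.23. Mos had values of 0.66 ± 0.27 and −0.72 ± 0.30. Cyp11a1, the side-chain cleavage enzyme of steroid synthesis and a granulosa and luteal marker, had a wild type value of 3.39 ± 0.68 (adjusted p = 0.034) and a knockout value of −0.95 ± 0.69, at knockout means of 3.41 and 1.74 CPM. None of these differences passed in edgeR (adjusted p of 0.313 or more for those other than Ptar1). With DESeq2's Wald test 10 passed, all on the higher side in knockout, among them Ptar1 (adjusted p = 0.00036), Dgat2 and Fbxl6 (both 0.0497). With the granulosa marker sum as a covariate 34 passed, among them these 3 and Cyp11a1, and without the 4 libraries lowest on the first component 2 did, among them Ptar1. Over 35 alternatives the difference for Ptar1 lay between 1.60 and 1.91, with adjusted p-values from 0.00036 to 1, and it passed in 4 of them. Whether the age effects differed between genotypes thus depended on the test and its settings.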

How the data were processed

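The members and the gene lists were chosen with earlier results of these data known. The authors deposited expected counts per gene, estimated reads that were not normalised; per the submitters' processing notes they used STAR, Partek and DESeq2 and the mm10 genome, and versions are not given in the sources used here. Of the values 17.9% were not whole, and all were rounded before testing. Genes were filtered with filterByExpr and scaled by TMM, and 1 model with a mean for each of 4 oocyte groups (36 libraries) was fitted with edgeR 4.0.16 (glmQLFit, robust; R 4.3.3), which gave the age contrast in each genotype and their difference. P-values were adjusted by Benjamini-Hochberg over all tested genes. CPM values are TMM-scaled for genes and scaled to library totals for marker sums and Esr2. DESeq2 1.42.0 and limma 3.58.1 served as alternatives. Named genes were those called, up to 4 of each list by p, 6 in each direction by the difference test and a fixed oocyte set; the next ranked were added after their values were seen. The edgeR script was tested on simulated counts. Sample numbers are not known to pair animals and were not used for pairing in the main fit. Residual correlations of same-numbered libraries were computed without a test, so they cannot exclude pairing. One gene called higher is not reported here. Normalised tables and miRNA were not used here, and none of the 13 mitochondrially encoded genes was tested.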

Additional observations from a re-analysis of the deposited data

Results flagged for a closer look

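In groups of 4 to 10 libraries, a library whose gap to its nearest neighbour took an unusually large part of the group's range (Dixon's ratio) was singled out. The check covered 90 groups of values in the 4 week knockout and 7 week wild type libraries, and 11 were singled out. The nominal rate of about 1 in 20 holds for independent, normally distributed values. These groups share the same libraries and the values were not logged, so 11 of 90 cannot be set against that rate. The 12 library groups are too large for it.

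In 4 week knockout oocytes, library 2 had 203.3 CPM of Cirbp against 112.4 in the next, and without it Cirbp lost its call (as did Dcaf5). Library 7 had 3.61 CPM of Ptar1 against 7.07 in the next lowest. Library 4, which stood apart on the first principal component, had 1282 CPM of Dnmt1 against 983.8. Library 6 had 65.0 CPM of Dnmt3b against 32.2.

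In 7 week wild type oocytes, library 1 was singled out in 6 measures. It had 25.2 CPM of Ddx4 against 9.30, 401.8 CPM of Dazl against 1064, 624.7 CPM of Nlrp5 against 419.9 and 1146 CPM of Dnmt3a against 754.7. It had 12645 genes detected after thinning to 1 depth against 13463, and a score of −138.9 on the first component against −39.1. Library 2 had a granulosa marker sum of 491.6 CPM against 179.0.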

How the results depend on the processing

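Over 36 alternatives no named gene that passed in the knockout comparison changed direction. The 79 changes of sign, in 16 of the 197 named genes, were all in genes that passed in neither setting. Direction was not checked for other genes or for the wild type calls. The knockout count of 3 became 41 with DESeq2's Wald test (27 higher, 14 lower), 6 with limma voom and 12 without the 4 libraries of lowest principal component score (a choice made after seeing the data); each of these sets held the same 3 genes. Leaving out 1 library at a time, which was done for the numbered knockout libraries and the 7 week wild type ones but not for the 4 week wild type ones, gave 0 to 6 calls: 0 without the 4 week library 2, 1 without number 6, 5 without number 7, and 6 without number 3 or number 4. The wild type count of 37 became 135 with DESeq2 size factors, 102 with library totals, 959 with DESeq2, 321 with limma voom, 383 at a mean of at least 5 CPM, 111 with all oocyte libraries, 243 with counts thinned to 1 depth, 82 without the unnumbered column, 2149 with the granulosa covariate and 770 without the 4 libraries. It ran from 0 to 506 when 1 library was left out: 0 without the wild type libraries 1 or 4, 3 without number 2, 56 without number 3 and 506 without number 5 of 7 weeks; 5 without the 4 week knockout library 3 and 404 without number 4; and 472, 13, 89 and 5 without the 7 week knockout libraries 1, 7, 9 and 10. The count of genes whose age change differed between genotypes, 0, became 10 with DESeq2, 1 at a mean of at least 5 CPM, 34 with the granulosa covariate and 2 without the 4 libraries, and was 0 in each of the 23 fits without 1 library. With the sample number as a replicate block, which keeps only libraries whose number occurs at both ages, 0 genes passed in either genotype and for the difference, and Cirbp had a log2 fold change of −1.15 (adjusted p = 0.988 in edgeR). The residual correlation of same-numbered libraries was over 0.1 in 3 of 6 knockout and 1 of 5 wild type pairs, and fewer libraries enter that fit. List counts moved by 1 gene in 3 lists. Surface epithelium markers passed the exact permutation test in 6 of their alternatives, with adjusted p-values of 0.0181 to 0.0437. Other causes of these shifts were not tested. Counts per library limit the precision for genes of low level.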

Other observations

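Knockout oocytes of 6 months, 4 libraries from another table, gave values for Dcaf5 and Cirbp on a scale set jointly over all ages, without a test. Age and table cannot be told apart here either. Dcaf5 stood at 39.1 CPM, between 30.9 and 47.6, against means of 37.0 at 4 weeks and 89.6 at 7 weeks on that scale. The lowest library of 7 weeks had 60.3. Cirbp stood at 89.5 CPM, between 56.9 and 108.6, against means of 109.8 and 49.5.

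The table of 4 weeks holds 732 genes that the table of 7 weeks does not, and the reverse holds for 750; these could not be compared. The most abundant of them by its mean over all libraries of its table was Krt18, a keratin on the surface epithelium marker list, at 6.81 CPM at 7 weeks.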
